A study of Homo sapiens with 24 samples.

Results

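Gene expression in estrogen-treated B-lymphoblastoid cells was compared with that in untreated cells. The arrays were chosen by their labels: 6 arrays of cells given estrogen for 36 h and 6 arrays of untreated cells at 0 h, 12 of the 24 arrays of the study. The cells were GM10855 and GM10861, HapMap project lines of human B cells immortalised with Epstein-Barr virus, and each line gave 3 arrays per group. Each line was compared with its own untreated arrays, and the 2 changes were averaged. The other 12 arrays hold the same lines after 36 h of calcitriol (active vitamin D), alone or together with estrogen. Each group is 1 cell line in culture, so the results describe these 2 lines. Which estrogen was used, its dose, its solvent and the medium were not stated in any source used here. Nothing says that the 3 arrays per group are separate cultures, so every p-value rests on a spread between arrays that may be only technical. All untreated arrays were taken at 0 h, so estrogen and 36 h of further culture cannot be told apart in this comparison, and the measured change is the sum of both.

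Estrogens act mainly through the nuclear receptors ESR1 and ESR2, which bind DNA at the estrogen response element, a palindrome whose inverted arms are separated by 3 bases, and recruit coactivators such as the NCOA proteins. GPER1 is a membrane receptor that signals without direct DNA binding. In breast cancer cells that make ESR1, the hormone switches on genes such as TFF1, GREB1 and PGR and drives division. In B cells, estrogens are known for effects on survival, tolerance and antibody production.

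The 12 arrays differed little by treatment. Values are log2 signals of probe sets, so a change of 1 is a doubling. Across probe sets, the correlation between replicate arrays was 0.985 to 0.993 (median 0.989, 12 pairs), and untreated and estrogen arrays of the same line at 0.985 to 0.993 (median 0.990, 18 pairs). Arrays of different lines correlated at 0.978 to 0.984 (36 pairs). The B cell markers MS4A1 (CD20), CD79A and PAX5 read between 7.59 and 10.54 on the untreated arrays of GM10855 and between 7.90 and 11.01 on those of GM10861. Their changes with estrogen were 0.04, 0.03 and 0.05, all with an adjusted p of at least 0.983 in limma. They come from a list of 15 measured markers, not all of them bright. BANK1 read 3.26, 3.12 and 2.84 in untreated GM10855 and 3.12, 2.96 and 2.90 in untreated GM10861.

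No gene passed the test. Of 21214 probe sets, limma called 0 (0%) in estrogen against untreated at an adjusted p under 0.05, with 1097 (5.17%) at an unadjusted p under 0.05, 696 of them higher (3.28%) and 401 lower (1.89%). That split depends on the scaling: it was 434 higher and 591 lower with each array centred on its median, and 587 and 571 after cyclic loess. The array medians of the estrogen arrays exceeded those of the untreated ones by 0.02 on average (two-sided exact permutation within lines, p = 0.28, smallest possible 0.005). The smallest adjusted p was 0.0717. In the same model, calcitriol against the same untreated arrays gave 144 calls (0.679%), 131 higher (0.618%) and 13 lower (0.0613%), among them CAMP, which encodes the antimicrobial peptide cathelicidin, at 2.46 and CYP24A1, the enzyme that inactivates calcitriol, at 2.06. For estrogen these 2 genes stood at 0.13 ± 0.102 and 0.02 ± 0.115 (SE). Estrogen and calcitriol share the untreated arrays, so the values are given side by side only.

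**Figure D1:**
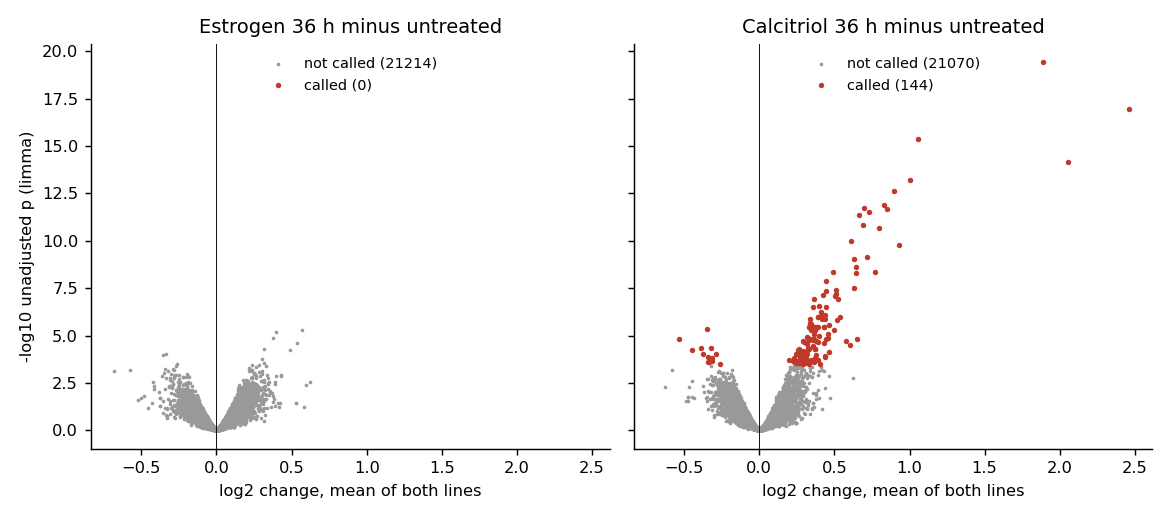
Each point is 1 of 21214 probe sets, with its log2 change averaged over both lines on the horizontal axis and −log10 of the unadjusted limma p on the vertical axis, for estrogen (left) and calcitriol (right) against the same untreated arrays. Red marks probe sets called at an adjusted p under 0.05: 0 for estrogen and 144 for calcitriol, on the same axes.

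The size of what could have been missed was gauged by the 95% intervals of the changes. Each interval is for 1 probe set by itself, not for all of them at once. It rests on the spread between arrays, which may be only technical. The median half-width of an interval was 0.154 on the log2 scale, and 98.9% of the probe sets had an interval that lay wholly within 0.5 of zero. All but 5 had one within 1. The changes themselves ran from -0.68 to 0.62. A change beyond 0.5 in size was measured for 10 probe sets, 7 higher and 3 lower, and one beyond 1 for 0. Because estrogen and 36 h in culture enter as a sum, these intervals are for the sum: an effect of one that was undone by the other would not show. In 59 probe sets (0.278%) every estrogen array exceeded every untreated array in both lines, and in 48 (0.226%) every estrogen array was lower in both. Within GM10855 alone such separation was seen in 1197 probe sets (5.64%) on the higher and 757 (3.57%) on the lower side, and within GM10861 in 1414 (6.67%) and 1033 (4.87%), so separation in 1 line is common.

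Small RNAs led the ranking by p, and their sequences show which families they belong to. They were singled out after their values were seen. MIRLET7F1 makes a member of the let-7 family of microRNAs, which repress growth genes such as MYC, RAS and LIN28B. MIR15A makes a microRNA that represses BCL2 and is lost in many chronic B cell leukaemias. MIR17HG is the host transcript of the miR-17-92 cluster, which is amplified in B cell lymphomas and held up by MYC. Probe sets for a microRNA gene on such an array, prepared from total RNA by a whole-transcript protocol, can read the precursor as well as the mature form, and these were not told apart. The mature sequences below are from RefSeq on GRCh38.p14, written 5′ to 3′, with the seed (bases 2 to 8), which pairs with target messages, in capitals.
hsa-let-7f-5p (MIRLET7F1, chr9:94176353-94176374, plus strand): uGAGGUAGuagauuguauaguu
hsa-let-7a-5p (MIRLET7A1, same cluster): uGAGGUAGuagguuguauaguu
hsa-let-7d-5p (MIRLET7D, same cluster): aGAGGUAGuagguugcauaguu
hsa-miR-15a-5p (MIR15A, chr13:50049167-50049188, minus strand): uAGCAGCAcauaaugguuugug
hsa-miR-16-5p (MIR16-1, same cluster): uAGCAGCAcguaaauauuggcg
hsa-miR-17-5p (hosted by MIR17HG, chr13:91350618-91350640, plus strand): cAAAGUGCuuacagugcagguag
hsa-miR-18a-5p (hosted by MIR17HG): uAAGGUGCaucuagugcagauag
hsa-miR-19a-3p (hosted by MIR17HG): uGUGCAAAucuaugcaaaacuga
hsa-miR-92a-3p (hosted by MIR17HG): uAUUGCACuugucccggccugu
The let-7 members share the seed GAGGUAG, and miR-15a shares AGCAGCA with miR-16. The cluster in MIR17HG carries 4 different seeds. Its miR-20a and miR-19b, not printed, have the seeds of miR-17 and miR-19a.

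MIRLET7F1 had the smallest p of all. In GM10855 it read 4.74, 4.82 and 4.97 without treatment and 5.49, 5.17 and 5.64 with estrogen. The GM10861 arrays read 4.92, 4.90 and 4.98, against 5.40, 5.67 and 5.38. All 6 estrogen arrays lay above all untreated arrays of their line. The log2 change was 0.57 ± 0.0961 (SE; 1.49-fold), with an adjusted p of 0.0717 in limma, which missed the threshold. Its relatives of the same seed changed less: of 12 let-7 family probe sets, the next highest was MIRLET7G at 0.30 and the lowest was at -0.05. The median of the 12 was 0.11, and 11 stood above zero, where 56.1% of all probe sets did. At an unadjusted p under 0.05 there were 2 of the 12, MIRLET7F1 included, against 5.17% of all probe sets. MIRLET7A1 and MIRLET7D, from the same cluster, stood at 0.09 and 0.06.

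MIR15A was close behind in size. In GM10855 it read 5.54, 4.88 and 5.42 without treatment and 5.80, 5.89 and 5.71 with estrogen. The GM10861 arrays read 5.26, 5.19 and 5.26, against 5.61, 6.03 and 5.73. The groups did not overlap in either line, and the change was 0.54 ± 0.102 (SE; adjusted p = 0.126 in limma). MIR16-1, processed from the same host transcript, stood at 0.09, and the host DLEU2 at 0.15. Over the 5 probe sets of microRNAs with the seed of miR-15a, changes ran from -0.25 to 0.54. BCL2, which miR-15a represses, stood at 0.11 ± 0.0582.

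MIR17HG had the third smallest p and the smallest among genes that are not small RNAs. Its untreated signals of 5.80, 5.49 and 5.68 in GM10855 compared with 6.18, 6.10 and 6.22 after estrogen. In GM10861 they were 6.36, 6.28 and 6.43, against 6.48, 6.67 and 6.64. Every estrogen array was above the untreated ones of its line. The change was 0.38 ± 0.0683 (SE; 1.30-fold, adjusted p = 0.0909 in limma), 0.51 in GM10855 and 0.25 in GM10861. MYC, which drives this host gene, stood at 0.05 ± 0.0676. The microRNA processing genes DROSHA, DGCR8, XPO5, DICER1 and AGO2 stood between 0.04 and 0.14, the highest being DICER1. All 5 were above zero, where 56.1% of all probe sets were, and 1 had an unadjusted p under 0.05. None was called (0).

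Small nucleolar RNAs (snoRNAs) guide the chemical modification of ribosomal RNA, and most are cut from introns of host genes. SNORD52 had the second smallest p. It read 7.05, 6.94 and 7.24 in untreated GM10855 and 7.70, 7.45 and 7.74 with estrogen, with no overlap. GM10861 gave 7.43, 7.59 and 7.39, against 7.67, 7.87 and 7.59. There the groups met, since the lowest estrogen array lay at the level of the highest untreated one. The change was 0.40 ± 0.0685 (SE; adjusted p = 0.0717 in limma).

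SNORD74, SNORD75 and SNORD77 come from introns of GAS5, a host gene whose spliced RNA accumulates in growth-arrested cells. SNORD74 read 8.46, 8.44 and 8.75 in untreated GM10855 and 8.93, 8.95 and 8.85 with estrogen. In GM10861 the values were 8.67, 8.66 and 8.64, against 8.85, 9.04 and 8.91. The groups were separate in both lines, and the change was 0.32 ± 0.0641 (SE; adjusted p = 0.199 in limma). SNORD75 stood at 0.31 and SNORD77 at 0.40, but SNORD44 from the same host stood at -0.23. Of 10 probe sets taken for GAS5 or for snoRNAs of its introns, 5 were above zero and 5 below, with a median of 0.01. Of these 10, 4 had an unadjusted p under 0.05, against 5.17% of all probe sets, and 0 were called. SNORD7 stood at 0.49 ± 0.0992 (adjusted p = 0.199), separate from the untreated arrays in both lines.

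As a class, snoRNAs had a median near that of all probe sets, and microRNAs a higher one. In both classes a larger share had a small p on the higher side, and for snoRNAs on the lower side too. Many were dim: 126 of 173 microRNA and 74 of 178 snoRNA probe sets had a mean signal under 5, against 6688 of all 21214. The 178 snoRNA probe sets had a median of 0.02, with 18 higher (10.1%) and 6 lower (3.37%) at an unadjusted p under 0.05 and 0 called. The 173 microRNA probe sets had a median of 0.06, with 121 above zero (69.9%). At an unadjusted p under 0.05, 15 of them were higher (8.67%) and 2 lower (1.16%), and 0 were called. All probe sets together had a median of 0.01, with 56.1% above zero, 3.28% higher and 1.89% lower. Proteins that bind box C/D snoRNAs, such as fibrillarin (FBL, 0.02) and NOP58 (-0.03), stood near zero.

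The call on these small RNAs turned on the variance model and the filter. With probe sets under a mean signal of 5 left out, limma called 3: MIRLET7F1, SNORD52 and MIR17HG. With trend and robust estimation of the variance it called 6, adding MIR15A, SNORD74 and, as the 1 lower, MPLKIP. Leaving out GM10855 untreated array 3 gave 3 calls (MIRLET7F1, SNORD52 and SNORD74), and leaving out GM10855 estrogen array 2 gave 3 (MIRLET7F1, SNORD52 and SNORD7). Over 22 alternatives the adjusted p of MIRLET7F1 ran from 0.0155 to 0.419 and its change from 0.52 to 0.64.

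**Figure D2:**
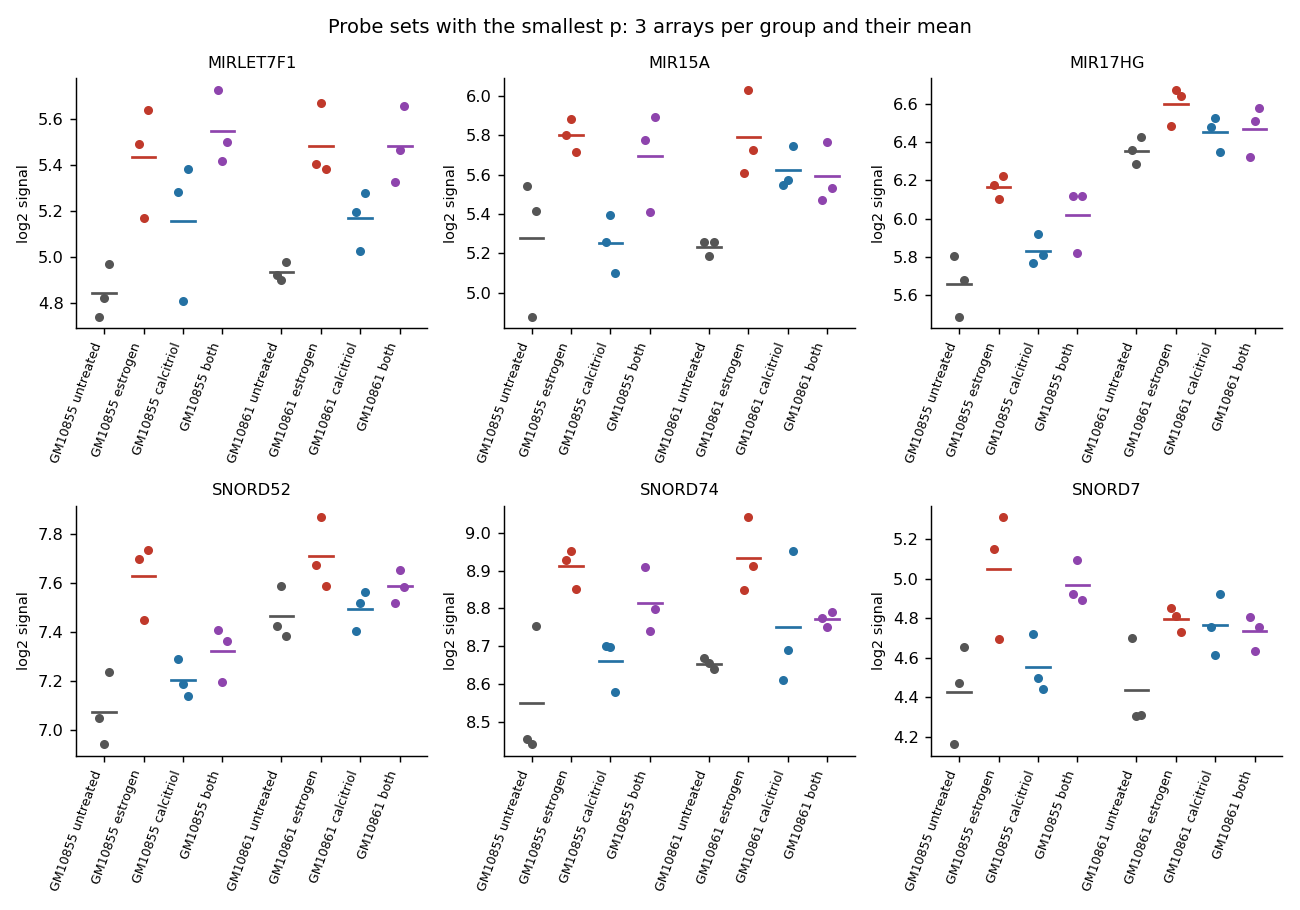
Log2 signal of the 6 probe sets with the smallest p in estrogen against untreated, with 1 point per array and a bar at the mean of each group of 3, for all 8 groups. In each panel the estrogen arrays lie above the untreated arrays of their line, save for 1 SNORD52 array in GM10861, and the mean of the calcitriol arrays lies between the 2, save for MIR15A in GM10855.

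The other 36 h groups place these values. In calcitriol against the same untreated arrays MIRLET7F1 stood at 0.27, MIR15A at 0.18, MIR17HG at 0.14, SNORD7 at 0.22, SNORD74 at 0.10 and SNORD52 at 0.08. When estrogen was added to calcitriol, with both groups at 36 h, they stood at 0.35, 0.21, 0.10, 0.19, 0.09 and 0.10. The 6 were chosen for their small p in estrogen against untreated, and calcitriol shares the untreated arrays, so the order of these values was not tested. The difference between the 2 estrogen comparisons was not called for any of the 6 (adjusted p = 0.992 in limma).

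Among the 10 genes named in each direction for the smallest p, the protein-coding ones changed by at most about 0.36, and none passed. Over all genes, with 1 probe set each, the changes ran from -0.68 to 0.62. KCNQ5, a voltage-gated potassium channel, read 6.62, 6.41 and 6.60 in untreated GM10855 and 6.77, 6.83 and 6.96 with estrogen. GM10861 read 6.45, 6.49 and 6.52, against 6.59, 6.63 and 6.73. The groups were separate in both lines, with a change of 0.24 ± 0.0566 (SE; adjusted p = 0.573 in limma). CD247, the zeta chain of the T cell receptor complex, was likewise separate in both lines at 0.28. FHIT, a tumour suppressor at a fragile site, stood at 0.33, with overlap in GM10855. ARG1, the arginase of the urea cycle, stood at 0.26 and SLC8A3, a sodium-calcium exchanger, at 0.24. ADCK2 (0.22), SPATA13, a guanine nucleotide exchange factor (0.22), ZNF697 (0.24) and DRGX (0.30) completed, with MIR17HG, the 10 named for the smallest p in that direction. For SPATA13, calcitriol against untreated gave 0.69.

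On the lower side, SLC10A5 led. It is a member of the bile acid transporter family and gave a very low signal: 2.64, 2.26 and 2.39 in untreated GM10855 and 1.98, 1.96 and 1.96 with estrogen. GM10861 gave 2.99, 2.67 and 2.73, against 2.64, 2.52 and 2.46. The groups were separate in both lines, at -0.36 ± 0.0760 (SE; adjusted p = 0.266 in limma). No background limit came with the values, so whether such a signal exceeds noise was not tested. MPLKIP, linked to the hair disorder trichothiodystrophy, stood at -0.26, with its groups separate in both lines. Its 3 probe sets disagreed: they gave -0.26, -0.27 and -0.02. BRIX1 and CCDC59, of which BRIX1 is a ribosome assembly factor, stood at -0.29 and -0.28. ERP27, a chaperone-like protein of the endoplasmic reticulum, stood at -0.35, STMN2, a microtubule regulator of neurons, at -0.30, and OSER1, a gene of the oxidative stress response, at -0.25. The zinc finger genes ZNF675, ZNF26 and ZNF253 stood at -0.32, -0.20 and -0.27. The adjusted p of these genes lay between 0.573 and 0.631.

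The receptors for the hormone gave low signals on every array and no called change. ESR1 read 4.64, 4.67 and 4.53 in untreated GM10855 and 4.29, 4.82 and 4.25 with estrogen. In GM10861 it read 4.17, 4.45 and 4.47, against 4.32, 4.50 and 4.60. The groups overlapped in both lines, and the change was -0.02 with a 95% interval from -0.20 to 0.15 (adjusted p = 0.997 in limma). ESR2, the receptor form better known in lymphocytes, read 5.05, 5.09 and 5.25 in untreated GM10855 and 5.09, 5.09 and 5.25 with estrogen. In GM10861 its 3 estrogen arrays (4.63, 4.63 and 4.58) lay below the untreated ones (4.68, 4.76 and 4.80), and the average change was -0.06 (interval -0.21 to 0.09). GPER1 stood at 0.03 (interval -0.13 to 0.18). The estrogen-related orphan receptors ESRRA, ESRRB and ESRRG stood at -0.06, -0.08 and 0.09.

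Target genes known from breast cells stood near zero. TFF1, the trefoil peptide whose promoter is a standard estrogen reporter, read 5.42, 5.69 and 5.33 in untreated GM10855 and 5.59, 5.59 and 5.54 with estrogen. In GM10861 it read 5.20, 5.34 and 5.45, against 5.53, 5.35 and 5.31. The groups overlapped in both lines, with a change of 0.08 (interval -0.05 to 0.21). GREB1, a coactivator of ESR1, stood at -0.04, the progesterone receptor PGR at 0.06, the cyclin CCND1 at -0.13 and XBP1, a factor of the unfolded protein response that plasma cells need, at -0.02. Of 34 measured genes of the list, 0 were called, 20 stood above zero and 14 below, and the median was 0.02, against 0.01 over all 18417 genes. HSPB8, a small heat shock protein, had the smallest p in the list. It read 3.79, 4.16 and 3.76 in untreated GM10855 and 4.30, 4.20 and 4.30 with estrogen, and 3.59, 4.09 and 4.19 against 4.14, 4.18 and 4.35 in GM10861. The groups were separate in GM10855 and overlapped in GM10861, and the change was 0.32 (adjusted p = 0.789 in limma).

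**Figure D3:**
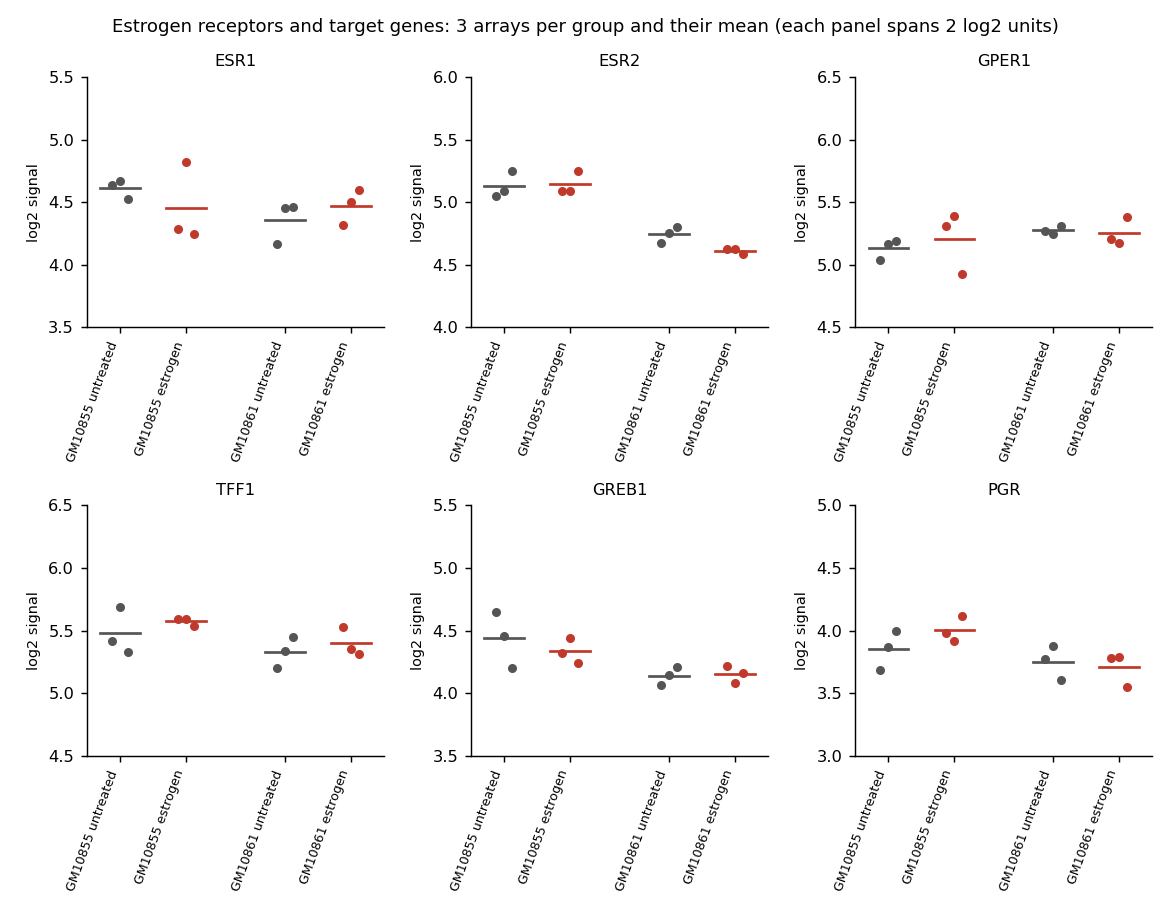
Log2 signal of 3 estrogen receptors and 3 estrogen target genes of breast cells on the 12 arrays, with 1 point per array and a bar at the mean of each group of 3; every panel spans 2 log2 units. Untreated (grey) and estrogen (red) arrays overlap in both lines for each gene except ESR2 in GM10861.

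Coactivators and corepressors of the receptors gave 19 measured genes, 0 called, 2 at an unadjusted p under 0.05, and a median of -0.00. NCOA6 and NCOA2, coactivators of nuclear receptors, had the smallest p at 0.14 and 0.15, and NRIP1, a corepressor that estrogen induces in breast cells, stood at 0.13. NCOA6 in GM10861 read 6.40, 6.39 and 6.29 untreated and 6.58, 6.50 and 6.45 with estrogen, which were separate; in GM10855 the groups met near 6.38. Enzymes that make or break down estrogens gave 16 measured genes, 0 called and a median of 0.05. STS, the sulfatase that frees estrone from its sulfate, was the 1 of them with an unadjusted p under 0.05. It read 5.16, 5.12 and 4.80 in untreated GM10855 and 5.29, 5.32 and 5.10 with estrogen. In GM10861 it read 5.89, 5.83 and 5.90, against 6.01, 6.04 and 6.07. The groups overlapped in GM10855 and were separate in GM10861, and the change was 0.19 ± 0.0607 (SE; adjusted p = 0.789 in limma), where calcitriol gave 1.89. CYP19A1, the aromatase, stood at 0.02.

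Genes through which estrogens are known to act in B cells gave 19 measured members, 0 called, 0 at an unadjusted p under 0.05, 13 above zero and a median of 0.05. BCL2, which blocks apoptosis, read 7.89, 7.61 and 7.87 in untreated GM10855 and 7.89, 7.97 and 7.92 with estrogen. The change over both lines was 0.11 (interval -0.01 to 0.23). CD22, an inhibitory receptor of B cell signalling, stood at 0.03 (interval -0.12 to 0.18), the cytokine gene IL6 at -0.16, and PRDM1, the switch to plasma cell fate, at 0.10. TNFSF13B, which encodes the survival factor BAFF, stood at 0.09.

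The DNA element bound by estrogen receptors was looked for at gene starts. The full palindrome GGTCANNNTGACC, which reads the same on both strands, was searched in windows of 300 bases, from 250 before to 50 after each start (RefSeq, GRCh38.p14). It occurred in 20 of 35116 windows (0.057%) and in 5 of 14237 measured genes. Of these 5 genes, the 3 whose site lies upstream of the start are shown, with the arms of the palindrome in capitals.
ZNF669 (chr1:247104503-247104545, minus strand): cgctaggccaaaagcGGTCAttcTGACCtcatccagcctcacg
SLC35B2 (chr6:44257742-44257778, minus strand): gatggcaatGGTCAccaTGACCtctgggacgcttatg
PRR16 (chr5:120531407-120531449, plus strand): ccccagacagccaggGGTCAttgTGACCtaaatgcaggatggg
ZNF669, a zinc finger gene, stood at -0.05, SLC35B2, a transporter of the sulfate donor PAPS, at 0.07, and PRR16 at -0.06. PRR16 was dim, with a mean signal of 3.24. The other 2 genes with a site, USHBP1 and EVX2, have it after the start and stood at 0.08 and 0.11. None of the 5 was called (0), and 0 had an unadjusted p under 0.05, where 4.82% of the genes without a site did. With only 5 genes, a count of 0 cannot tell their share from that one. A match describes these letters only and shows no binding.

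Further lists covered what growth and culture can change, with 30 lists and 618 distinct measured genes in all. Limma called 0 of the 618, and 10 were higher and 19 lower at an unadjusted p under 0.05. Over all 18417 genes, 609 were higher and 352 lower. The 95% intervals of 609 of the 618 lay within 0.5 of zero, and all 618 lay within 1. Of the 30 list medians over both lines 1, that of the replication-dependent histone genes, exceeded 0.1 in size. Centring the arrays moved a list median by at most 0.02 and turned the sign of 6 lists whose medians lay near zero.

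**Figure D4:**
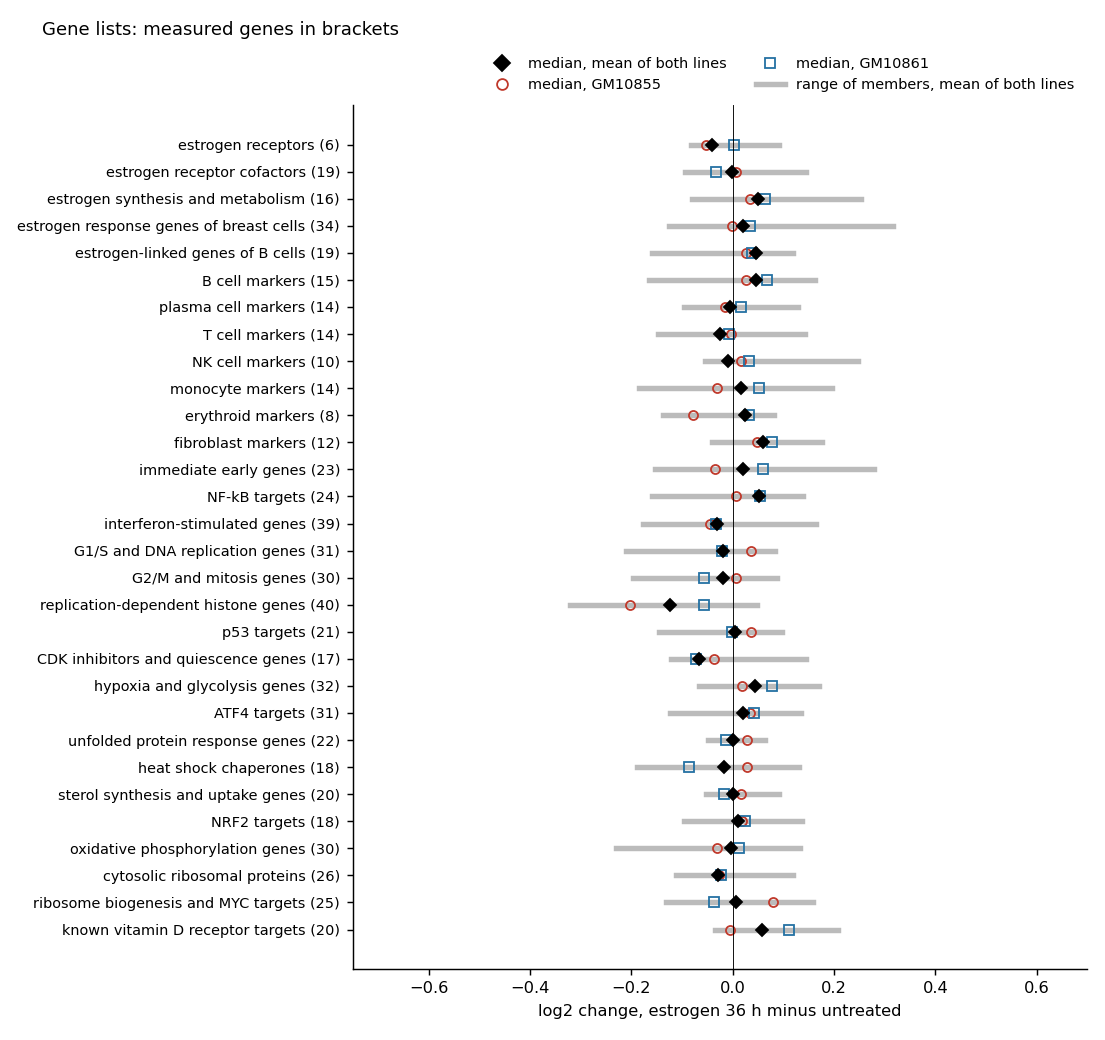
Log2 change in estrogen against untreated for 30 gene lists, with the number of measured genes in brackets. Black diamonds give the median over genes of the change averaged over both lines, red circles and blue squares the median in GM10855 and GM10861, and grey bars the range of the members; the histone genes (diamond at -0.12) and, in GM10861 alone, the vitamin D receptor targets (square at 0.11) have a median beyond 0.1 in size.

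The medians of the proliferation lists stood near zero. MKI67, the division marker, stood at 0.05 ± 0.0555 and CDKN1A, a brake on cyclin-dependent kinases, at -0.11 ± 0.0795. The 31 genes of G1/S and DNA replication had a median of -0.02, and the smallest p was that of E2F1, a factor of S phase entry, at -0.21. E2F1 read 6.72, 6.97 and 6.73 in untreated GM10855 and 6.30, 6.49 and 6.49 with estrogen, which were separate, but stood at -0.04 in GM10861. The 30 genes of G2/M and mitosis had a median of -0.02, with 4 lower at an unadjusted p under 0.05, against 352 of the 18417 genes. In GM10861 24 of the 30 stood below zero (median -0.06), and in GM10855 14 (median 0.01). CDK1, the kinase of mitotic entry, was among the 4 at -0.17. In GM10861 its highest estrogen array (7.92) lay just below the lowest untreated one (7.97). GM10855 gave 7.30, 7.22 and 7.02 against 7.02, 6.94 and 7.05. The groups were separate in GM10861 and overlapped in GM10855. The others were HMMR (-0.20), NUSAP1 (-0.17) and CDC25B (-0.17), with adjusted p values of at least 0.860 in limma. TXNIP, a glucose-responsive inhibitor of thioredoxin, stood at -0.09.

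The histone genes had the list median farthest from zero. Replication-dependent histone genes are transcribed in S phase, and their messages end in a stem-loop instead of a poly(A) tail. Of 51 listed genes 40 were measured, and 38 of these stood below zero, with a median of -0.12 against 0.01 over all genes. None was called (0), and 6 were lower at an unadjusted p under 0.05, against 352 of the 18417 genes. Many of these genes are near-identical copies, so probe sets can read each other's messages and the 40 values are not independent. In RNA from a whole culture, fewer cells in S phase and less histone message per cell cannot be told apart.

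The mean log2 signal of the 40 genes was 7.93, 7.55 and 7.63 on the untreated GM10855 arrays and 7.58, 7.54 and 7.42 on the estrogen arrays. In GM10861 it was 7.96, 8.04 and 8.03, against 8.04, 7.84 and 7.98. The groups overlapped in both lines, and the median change was -0.20 in GM10855 and -0.06 in GM10861. One array weighed heavily: without GM10855 untreated array 1, the highest of that line, the median was -0.07 and 30 genes stood below zero. H1-3, a linker histone, had the smallest p. It read 8.88, 8.39 and 8.52 in untreated GM10855 and 8.19, 8.27 and 8.01 with estrogen, and 9.10, 9.12 and 9.18 against 9.10, 8.75 and 8.99 in GM10861. The groups were separate in both lines, in GM10861 by less than the rounding of the values shown, and the change was -0.32 (adjusted p = 0.789 in limma), and H2AC17, a core histone, stood at -0.32 as well. The remaining genes with a small p, H1-2 and H4C2, stood at -0.20 and -0.21.

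The list was also compared where time was matched. Estrogen added to calcitriol compares both agents with calcitriol alone, all at 36 h, and uses none of the arrays above. There the histone median was -0.20, and 38 of 40 genes stood below zero. At an unadjusted p under 0.05, 21 of the 40 were lower, where 3.63% of all probe sets were, and 0 were called. Other lists lay mostly below zero there too: 27 of 30 oxidative phosphorylation genes (median -0.08) and 23 of 26 cytosolic ribosomal proteins (median -0.05). Without 1 array at a time the histone median ran from -0.28 to -0.15. The mean of the 40 genes was 7.62, 7.72 and 7.79 with calcitriol and 7.24, 7.52 and 7.41 with both agents in GM10855, separate groups. In GM10861 it was 8.10, 8.08 and 7.77, against 7.92, 7.96 and 7.86, which overlapped.

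**Figure D5:**
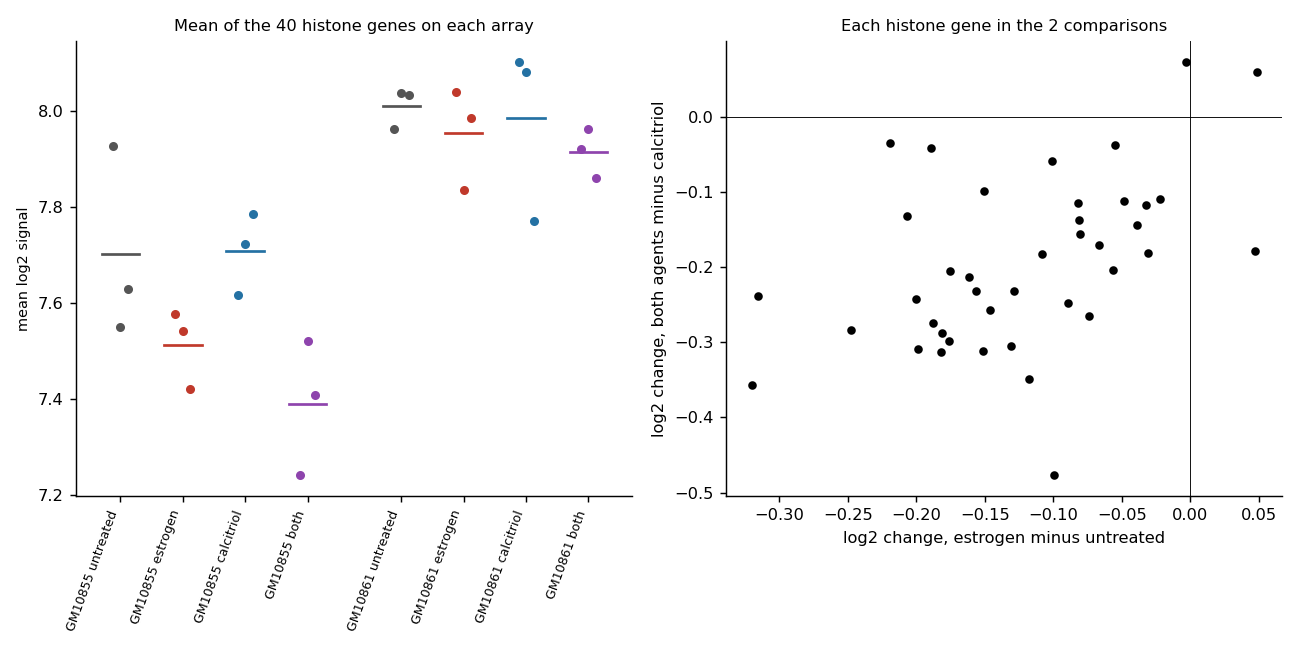
Left: mean log2 signal of the 40 histone genes, 1 point per array and a bar at the mean of each group of 3. Right: log2 change of each histone gene in estrogen against untreated (horizontal) and in estrogen added to calcitriol (vertical), which share no arrays; most genes lie below zero on both axes, and array 1 of untreated GM10855 (7.93) stands above the other untreated arrays of that line.

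Lists on stress, nutrients and metabolism had no called member. The 32 genes of hypoxia and glycolysis had a median of 0.04, with 25 above zero, and the smallest p was that of NDRG1 (0.17). The 31 ATF4 targets, which mark amino acid shortage, had a median of 0.02, and the 22 genes of the unfolded protein response one of 0.00, with every member between -0.05 and 0.06. The 20 genes of sterol synthesis stood at 0.00, 18 NRF2 targets at 0.01, 21 p53 targets at 0.00 and 18 heat shock chaperones at -0.02. CHORDC1, a partner of HSP90, had the smallest p of the chaperones at -0.19. Cytosolic ribosomal proteins (26 genes) had a median of -0.03, with 20 below zero, and oxidative phosphorylation genes (30) one of -0.00. The 39 interferon-stimulated genes had a median of -0.03, with 28 below zero, and the 24 NF-kB targets one of 0.05. The 23 immediate early genes, which respond to handling and fresh serum, had a median of 0.02 with 0 at an unadjusted p under 0.05. The 17 CDK inhibitors and quiescence genes had a median of -0.07, with 13 below zero.

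The 20 known targets of the vitamin D receptor had a median of 0.06 over both lines, with 15 above zero and 0 called. In GM10861 the median was 0.11, with 17 above zero, and the mean log2 signal of the 20 genes was 5.28, 5.32 and 5.32 untreated and 5.44, 5.42 and 5.42 with estrogen. In GM10855 the median was -0.01, with 9 above zero, and the means were 5.30, 5.30 and 5.22, against 5.32, 5.32 and 5.19. The estrogen arrays lay above all untreated ones in GM10861 and overlapped them in GM10855, and the difference between the lines was not tested for the list. In GM10861 1 of the 20 genes was higher at an unadjusted p under 0.05. When estrogen was added to calcitriol, the median of these genes over both lines was -0.03.

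Cell type markers stood near zero as well. B cell markers (15 genes) had a median of 0.05, with 12 above zero, and plasma cell markers (14) one of -0.01. At an unadjusted p under 0.05 in limma, the B cell marker VPREB3 was higher (0.16) and BANK1 lower (-0.17), and 0 were called. Markers of T cells, NK cells, monocytes, red cells and fibroblasts had medians between -0.03 and 0.06, and 0 of their members were called. The summed signal of the T cell markers ranged from 9.68 to 9.73 (log2) over untreated and from 9.64 to 9.77 over estrogen arrays of GM10855, and from 9.49 to 9.55 and 9.48 to 9.54 in GM10861. MNDA, a myeloid nuclear antigen, was the monocyte marker with the smallest p, at -0.18.

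Each line by itself gave 0 calls: 1528 probe sets (7.2%) in GM10855 and 994 (4.69%) in GM10861 had an unadjusted p under 0.05. In GM10855 the smallest p among the genes to be named went to MIR17HG (0.51), ARG1 (0.42) and LINC00310 (0.40) above zero and to CD300LD (-0.49), SLC10A5 (-0.46) and KPRP (-0.49) below. CD300LD, a receptor of myeloid cells, read 4.36, 4.25 and 4.16 untreated and 3.55, 3.98 and 3.77 with estrogen, with no overlap. Its adjusted p was 0.436 in limma. In GM10861 they were SLC8A3 (0.39), C6orf15 (0.41) and HDDC3 (0.35) above and PGM5 (-0.60), LRRFIP1 (-0.46) and GIN1 (-0.51) below. PGM5, a phosphoglucomutase-like protein of cell adhesions, read 4.28, 4.32 and 4.50 untreated and 3.99, 3.75 and 3.54 with estrogen, separate groups with an adjusted p of 0.762.

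Across 21214 probe sets, the changes of the 2 lines correlated at -0.03 (Pearson), and at -0.05 over the 14526 with a mean signal of at least 5. By rank (Spearman) these were -0.06 and -0.10. The lines share no arrays in these changes but were normalised by the same method, and probe sets are not independent replicates. For calcitriol the Pearson correlations were 0.09 and 0.15, but those by rank were -0.01 and 0.02. The difference between the lines, coded as GM10861 minus GM10855, was called in 0 probe sets (1257, or 5.93%, at an unadjusted p under 0.05). HMGB3, a chromatin protein, had the smallest p: it read 6.23, 6.16 and 6.24 in untreated GM10855 and 6.66, 6.62 and 6.49 with estrogen. In GM10861 it read 6.83, 6.83 and 6.71, against 6.59, 6.55 and 6.53. Both lines had separate groups, with changes of opposite sign (0.38 and -0.24), and the difference of -0.61 had an adjusted p of 0.654 in limma. LINC00310 (-0.54) and the galactosyltransferase gene B4GALT4 (-0.55) followed on that side, and PGLS, an enzyme of the pentose phosphate pathway (0.77), CD300LD (0.66) and C6orf15 (0.56) on the other.

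Estrogen in the presence of calcitriol, at matched time, also gave 0 calls, with 1772 probe sets (8.35%) at an unadjusted p under 0.05 and a smallest adjusted p of 0.115. NF1, which encodes the RAS inhibitor neurofibromin, stood at 0.32 and TAF1L at 0.29, both with an adjusted p of 0.115 in limma. In estrogen against untreated they stood at 0.06 and -0.05. TAS2R14, a bitter taste receptor, stood at 0.48 and 0.19. On the lower side, the rRNA methyltransferase gene MRM3 stood at -0.25 and 0.05, CD177, a neutrophil surface protein, at -0.85 and -0.43, and HAPLN3, a hyaluronan link protein, at -0.29 and 0.06. Across probe sets the 2 estrogen comparisons, which share no arrays, correlated at 0.17 (Pearson) and at 0.16 by rank.

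The difference between the 2 estrogen comparisons was called in 0 probe sets, with 935 (4.41%) at an unadjusted p under 0.05. It sets estrogen against untreated, with its 36 h of culture, against estrogen added at matched time. ZNF26 had the smallest p, at -0.20 in the first and 0.18 in the second (difference -0.38, adjusted p = 0.671 in limma), followed by TAF1L (difference -0.33) and RIN2, a RAB5 regulator (-0.38). MRM3 (0.30), PLCD4, a phospholipase C (0.32), and URB1-AS1 (0.32) led on the other side. The intervals of this difference lay within 0.5 of zero for 93.4% of the probe sets.

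Against untreated cells, both agents together gave 243 calls (1.15%) and calcitriol alone 144, where estrogen alone gave 0; the 3 comparisons share their untreated arrays. No gene of the vitamin D response was called with estrogen (0). VDR stood at 0.06 with estrogen, 0.44 with calcitriol and 0.37 with both. For STS these values were 0.19, 1.89 and 1.92, for CYP24A1 they were 0.02, 2.06 and 2.09, and for CAMP 0.13, 2.46 and 2.29. The calcitriol count ran from 96 to 166 when 1 array at a time was left out.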

How the data were processed

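The log2 signals per probe set were made by the authors: per the submitters' processing notes, Affymetrix Expression Console 1.0.1 ran the RMA method. RMA removes changes shared by most probe sets and compresses those of dim ones. No source used here states which arrays were normalised together, nor a build or annotation. Of 33297 probe sets, the 21214 with at least 1 symbol in the platform table were tested (19460 with 1, 1754 with several, which name no gene; 12083 had none). Limma 3.58.1 in R 4.3.3 fitted 1 mean for each of 8 groups over 24 arrays (16 residual and 6.73 prior degrees of freedom), after the code was tested on simulated data. P-values were two-sided and Benjamini-Hochberg adjusted over all probe sets, with calls at an adjusted p under 0.05. Lists used 1 probe set per gene, the brightest. Members and lists were chosen with earlier results of these data known. Named genes were, in each direction, the 10 of smallest p (3 for the other comparisons), up to 4 per list, and a fixed set of receptors and targets; Y-linked genes, genes with common deletions, small RNAs and pseudogenes were left out, except the small RNAs described. Alternatives were a filter on dim probe sets, all probe sets, median centring, cyclic loess, trend and robust estimation, array weights, no moderation, only the 12 arrays, other call rules and leaving out each array. Arrays are numbered in sample order. The number of arrays limits the precision.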

Additional observations from a re-analysis of the deposited data

How the results depend on the processing

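No paired analysis was possible because the labels give no replicate numbers that groups share. The count of 0 for estrogen against untreated became 3 without dim probe sets, 6 with trend and robust estimation and 3 at an adjusted p under 0.10; leaving out 1 array at a time gave 0 to 3. It stayed at 0 with all probe sets, median centring, cyclic loess, array weights, no moderation, only the 12 arrays and a minimum change of 0.5. In GM10855 alone, trend and robust estimation called 1 (SNORD52). Estrogen added to calcitriol went from 0 to 2 without dim probe sets (NF1 and TAF1L), 1 with array weights (NF1) and 1 without moderation (TAF1L), and ran from 0 to 1 when 1 array was left out (NF1, without array 2 of GM10855 with both agents). The counts for GM10861, for the difference between the lines and for the difference between the 2 estrogen comparisons were 0 in every alternative. Changes near zero turned sign: CYP19A1 was -0.0014 with median centring and -0.0049 with array weights, CYP24A1 was -0.022 with array weights, and XBP1 was 0.0036 after cyclic loess. Without 1 array at a time, CD22 ran from -0.0259 to 0.0797, CYP19A1 from -0.0395 to 0.0517, CYP24A1 from -0.0679 to 0.0866, ESR1 from -0.116 to 0.0277, GPER1 from -0.0189 to 0.0972 and GREB1 from -0.103 to 0.0090. The cause was not tested. Small changes of dim probe sets, those of the receptors among them, are limited by their signal over background, which cannot be read from these values.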
